A study of Schizosaccharomyces pombe with 6 samples.

Results

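The RNAs described here are 6 transcripts of the fission yeast Schizosaccharomyces pombe that the RNA-binding protein Mmi1 is known to recognise. They are the meiotic mRNAs mei4, ssm4, rec8, spo5 and crs1 and the long non-coding RNA sme2, also called meiRNA. They were taken by name from a table of 7001 features, where all 6 were found. The cells were vegetative, grown in rich YES medium at 32 °C, and came from 3 strains with 2 libraries each. One strain was red1Δ, in which the gene for Red1 was replaced, the second was mug174Δ, in which the gene for Mug174, the fission yeast ortholog of coilin, was replaced, and the third was their WT parent. The design text calls the 2 libraries of a strain biological replicates and gives no more on how separate the cultures were, so p-values measure only the spread between these libraries.

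In growing fission yeast, a set of meiotic genes is transcribed at low level although their products serve meiosis. Mmi1 binds these RNAs through a region called the determinant of selective removal (DSR), which is rich in the core word UNAAAC, and the MTREC complex, built around Red1 and the helicase Mtl1, hands them to the nuclear exosome for decay. When cells enter meiosis, the RNA-binding protein Mei2 and sme2 together hold Mmi1 in a nuclear dot, and the meiotic mRNAs escape removal. Of the 5 mRNAs, mei4 encodes the forkhead transcription factor of middle meiosis, ssm4 a dynactin subunit that serves nuclear movement in meiotic prophase, rec8 the meiotic kleisin of cohesin, spo5 an RNA-binding protein of meiosis and sporulation, and crs1 a meiotic cyclin. In bulk RNA, more RNA in each cell and more cells with the RNA cannot be told apart.

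The core word was searched in each feature as TNAAAC in the DNA of the sense strand. This spelling also contains TAAAAC, which was left out as an alternative. To show where the words lie closest together, the stretch with the most words within 150 bases of 1 exon is printed for each RNA, 5′ to 3′ in the RNA's own direction, with every TNAAAC in capitals. The sequences were read from the RefSeq assembly ASM294v3. Those of the 5 mRNAs lie in coding exons.
mei4: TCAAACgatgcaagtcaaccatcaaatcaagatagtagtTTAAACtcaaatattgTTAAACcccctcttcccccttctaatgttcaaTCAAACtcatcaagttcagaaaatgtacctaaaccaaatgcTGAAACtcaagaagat
ssm4: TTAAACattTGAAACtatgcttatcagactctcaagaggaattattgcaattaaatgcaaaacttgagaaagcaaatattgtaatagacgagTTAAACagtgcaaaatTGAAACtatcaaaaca
rec8: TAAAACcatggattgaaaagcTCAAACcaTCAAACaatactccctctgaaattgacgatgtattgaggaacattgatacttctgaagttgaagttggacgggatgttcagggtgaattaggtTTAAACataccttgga
spo5: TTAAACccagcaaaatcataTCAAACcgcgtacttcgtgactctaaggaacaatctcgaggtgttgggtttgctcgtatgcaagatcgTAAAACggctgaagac
crs1: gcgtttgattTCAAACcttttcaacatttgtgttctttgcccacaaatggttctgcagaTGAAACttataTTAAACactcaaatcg
sme2: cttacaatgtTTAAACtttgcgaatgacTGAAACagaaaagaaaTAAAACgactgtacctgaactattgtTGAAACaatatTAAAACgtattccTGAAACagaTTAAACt

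The mei4 stretch is chrII:1473878-1474021 on the plus strand, and the ssm4 stretch is chrI:4535146-4535269 on the minus strand. The rec8 stretch is chrII:2570136-2570273 and the spo5 stretch chrII:2537534-2537637, both on the plus strand. The crs1 stretch is chrII:3452375-3452460 and the sme2 stretch chrII:339346-339455, both on the minus strand. They hold 5 words in mei4, 4 in ssm4, 4 in rec8, 3 in spo5, 3 in crs1 and 7 in sme2. A window of 150 bases with at least 5 words was found in 0.0597% of the 5027 protein-coding features searched, mei4 included, one with at least 4 in 0.617%, and one with at least 3 in 4.44%. Among the 1677 non-coding features searched, 0.0596% had a window with at least 7 words, and that share is sme2 itself.

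Over their whole coding length, mei4 carried 10 words in 1554 bases, ssm4 13 in 2013, rec8 11 in 1686, spo5 6 in 1704 and crs1 7 in 903. Per 1000 bases that is 6.44 in mei4, 6.46 in ssm4, 6.52 in rec8, 3.52 in spo5 and 7.75 in crs1, against a median of 1.51 over all protein-coding features searched. The sme2 feature held 8 words in 667 bases, or 12.0 per 1000 bases, against a median of 1.61 over the non-coding features. This feature is only the 3′ part of the RNA, and the long form in RefSeq held 9 words, or 5.76 per 1000 bases. A word of this kind is common in itself: between 78.3% and 97.4% of protein-coding features within 10% of the length of an mRNA here held at least 1. Counts as high as those of mei4, ssm4, rec8 and crs1 occurred in 0.179% to 0.529% of the features of like length, and a count as high as that of spo5 in 6.99%. Each of these shares counts the mRNA itself, and that of rec8 is rec8 alone. The opposite strand of the same features held fewer words in every case, with 5 in mei4, 5 in ssm4, 6 in rec8, 4 in spo5, 4 in crs1 and 1 in sme2. The share of all features with fewer words on the opposite strand was not counted. A match is a description of the letters and not evidence of binding.

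The words were not spread evenly. In mei4, all 10 lay between bases 403 and 813, 9 of them before the middle of the coding sequence. In rec8, 10 of 11 lay after the middle, and in ssm4 10 of 13. In sme2, 7 of 8 lay in the last stretch of the feature, which is the one printed above. Forms of the word also differed: crs1 had no TAAAAC, and TTAAAC was its most frequent form with 5 of 7.

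**Figure D1:**
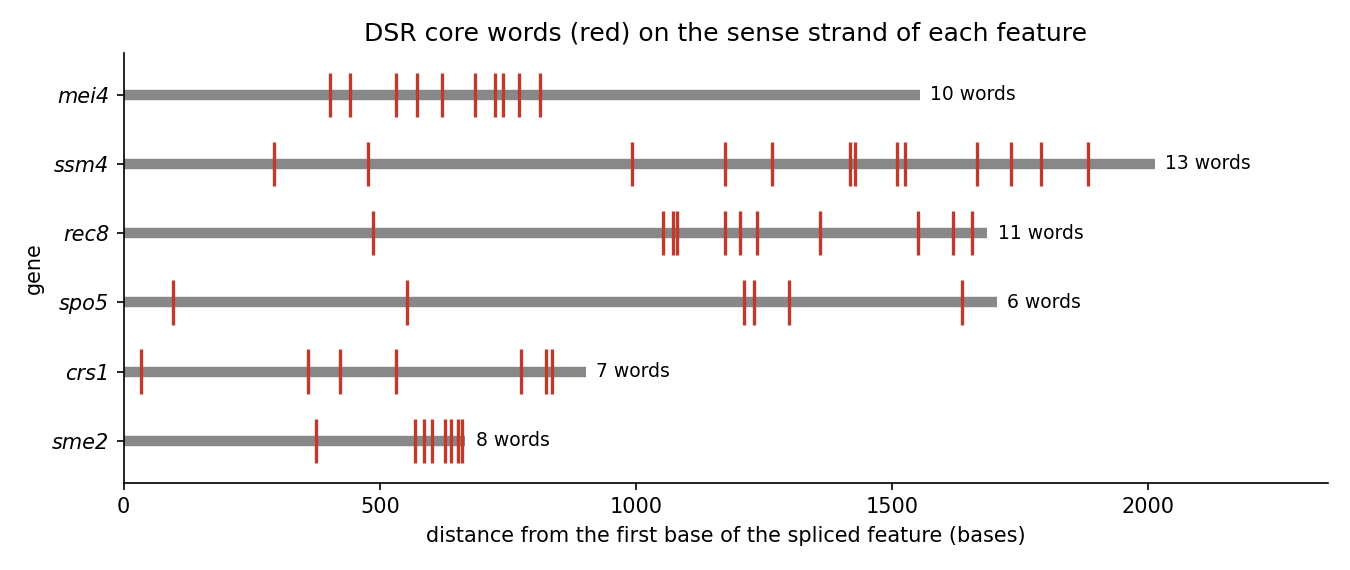
Positions of the DSR core word TNAAAC (red ticks) along the spliced feature of each RNA (grey bars), with the distance from the first base in bases on the x axis and the genes on the y axis. The 10 words of mei4 lie between bases 403 and 813, while 10 of the 11 words of rec8 lie after its middle and 7 of the 8 words of sme2 at its 3′ end.

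The levels are given as RPKM, the reads of a feature per 1000 bases of its length and per 1000000 reads counted in all listed features. The libraries held 16565908 to 18627129 counted reads, and a single read in 1000 bases came to 0.0537 to 0.0604 RPKM. The deleted genes had next to no reads, with 1 and 2 for red1 in the red1Δ libraries and 1 and 0 for mug174 in the mug174Δ libraries. Ribosomal RNA took 2.87% and 2.97% of reads in red1Δ, 4.71% and 3.85% in mug174Δ, and 6.25% and 5.93% in WT, and its part in the values was not tested. Of 12 mating and meiotic genes listed to check the vegetative state, 11 had reads and their summed level was 256 and 289 RPKM in red1Δ, 240 and 238 RPKM in mug174Δ, and 189 and 177 RPKM in WT. The gene mei3, which encodes the meiotic inhibitor of the Pat1 kinase, had 1.94 and 4.66 RPKM in red1Δ, 0.675 and 0.360 RPKM in mug174Δ, and 0.977 and 0.387 RPKM in WT. It was raised by 1.63 on the log2 scale in red1Δ (adjusted p 0.029 in limma), and with the libraries scaled by their median ratio this had an adjusted p of 0.054. Only its red1Δ libraries reached the 1 RPKM required for a test, so mei3 was tested only through the strain where it was high. The gene at 0 in every library was mfm3. Of the 11 tested, 5 were raised in red1Δ, mei3 among them, beside 48.4% of all features, and 3 in mug174Δ, beside 19.8%. With median ratio scaling 3 were raised and 1 lowered in red1Δ and 2 raised in mug174Δ. In red1Δ, 3 were raised and 2 lowered without red1Δ replicate 2, and 3 raised without WT replicate 1 or WT replicate 2. The largest change in red1Δ was in mfm1, for the M-factor pheromone, which had 79.3 and 66.4 RPKM in red1Δ, 26.7 and 21.6 RPKM in mug174Δ, and 15.2 and 12.5 RPKM in WT. The gene mfm2 went the other way, with 16.7 and 34.7 RPKM in red1Δ, 34.0 and 39.4 RPKM in mug174Δ, and 49.0 and 41.8 RPKM in WT. Its log2 fold change in red1Δ was -0.90 (adjusted p 0.055 in limma), and -1.25 with median ratio scaling (adjusted p 0.017 in limma). The part of these genes in the results below was not tested.

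All 6 RNAs were far more abundant in red1Δ than in WT, by 20.4-fold for ssm4 at the least and 92.1-fold for spo5 at the most. In mug174Δ the differences from WT were small: sme2, crs1 and mei4 were higher by 2.53-fold, 2.20-fold and 1.65-fold, and spo5, ssm4 and rec8 did not pass the test. The rec8 mRNA, one of the most strongly raised in red1Δ, was at 1.06 times its WT level in mug174Δ, with a 95% interval from 0.582 to 1.93. Fold changes are from limma on log2(RPKM + 0.5), which understates the change of RNAs that are low in one strain, with Benjamini-Hochberg adjustment over the 5949 features with at least 1 RPKM in at least 2 libraries. All 6 RNAs passed this filter in the WT libraries alone, and an adjusted p under 0.05 was called a change.

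The transcription factor mRNA mei4 had 148 and 176 RPKM in red1Δ, 10.5 and 10.8 RPKM in mug174Δ, and 5.76 and 6.79 RPKM in WT. The dynactin mRNA ssm4 had 134 and 141 RPKM in red1Δ, 7.47 and 7.44 RPKM in mug174Δ, and 5.78 and 6.79 RPKM in WT. For both, the 3 strains did not overlap, and the lower mug174Δ library of ssm4 lay closer to the WT libraries than that of mei4 did. How many of all features had their 3 strains apart was not counted, here or below. The cohesin mRNA rec8 had 249 and 267 RPKM in red1Δ, 2.65 and 4.17 RPKM in mug174Δ, and 2.04 and 4.65 RPKM in WT. Here the mug174Δ libraries lay inside the range of the WT libraries. The mRNA of the RNA-binding protein Spo5 had 204 and 234 RPKM in red1Δ, 2.98 and 4.91 RPKM in mug174Δ, and 1.28 and 2.67 RPKM in WT. Both mug174Δ libraries of spo5 were above both WT libraries, although the lower mug174Δ library exceeded the higher WT library by less than either pair of libraries differed.

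The cyclin mRNA crs1 had 74.3 and 87.9 RPKM in red1Δ, 7.69 and 6.24 RPKM in mug174Δ, and 3.02 and 2.74 RPKM in WT. The non-coding sme2 had 135 and 183 RPKM in red1Δ, 9.14 and 6.76 RPKM in mug174Δ, and 3.03 and 2.59 RPKM in WT. The 3 strains were again apart for both, and the mug174Δ libraries were at more than 2 times the WT libraries. In red1Δ, the second library was the higher one for all 6 RNAs.

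**Figure D2:**
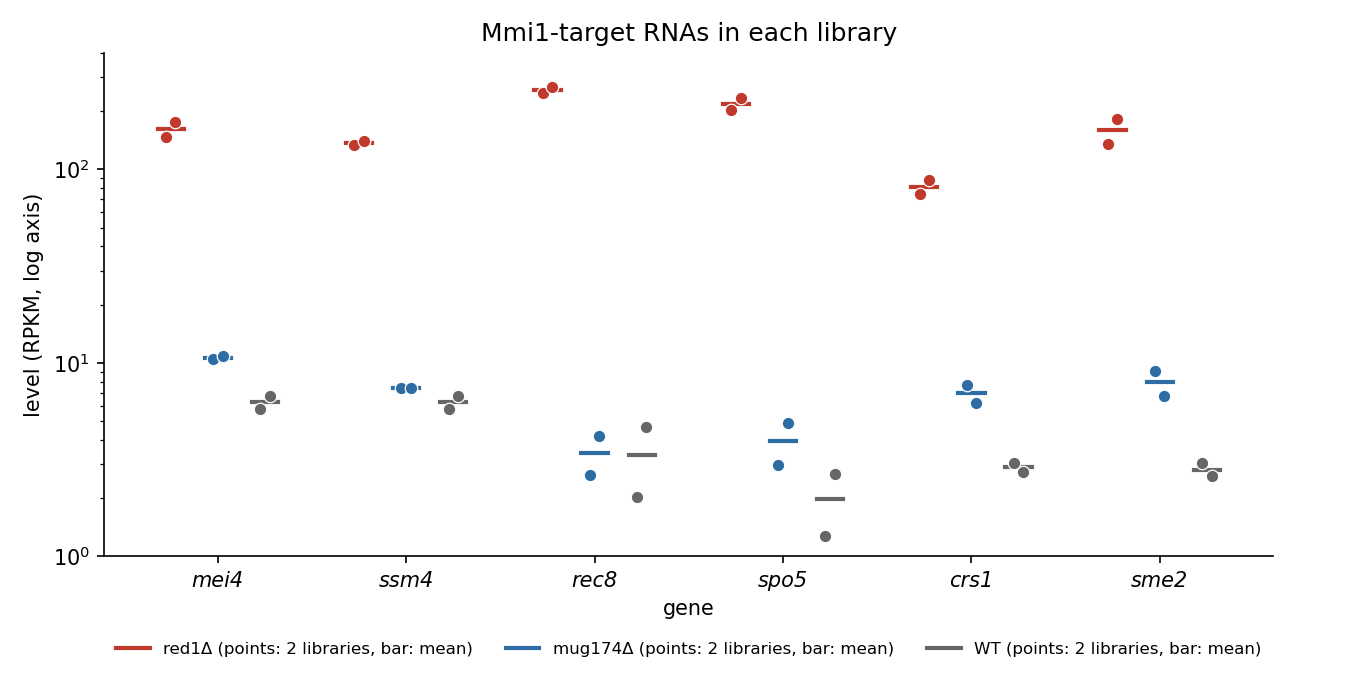
Level of each RNA in each library in RPKM on a log axis, with 1 point per library and a bar at the mean of the 2 libraries, for red1Δ (red), mug174Δ (blue) and WT (grey). The red1Δ libraries lie between 74.3 and 267 RPKM, and the mug174Δ and WT libraries between 1.28 and 10.8 RPKM.

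In reads, the 6 RNAs together took 24640 and 27812 reads in red1Δ, 894 and 1068 in mug174Δ, and 567 and 708 in WT. Per 1000000 reads this was 1424 and 1608 in red1Δ, 54.0 and 57.3 in mug174Δ, and 31.0 and 40.8 in WT. The lowest counts were those of sme2 in WT, with 37 and 30 reads, and the highest WT count was that of ssm4, with 213 and 237 reads. For rec8 the WT libraries had 63 reads (95% Poisson interval 48.4 to 80.6) and 136 reads (114 to 161), and for spo5 40 reads (28.6 to 54.5) and 79 reads (62.5 to 98.5). The intervals of the 2 WT libraries do not overlap for either gene, so these libraries differed by more than counting error. The second library was also the higher one in mug174Δ for both, by 0.57 on the log2 scale for rec8 and 0.64 for spo5, against 1.02 and 0.83 in WT. The Poisson intervals cover counting error only.

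Relative to all 7001 features, the RNAs lay between the 65.6th and the 90.3th percentile of levels in red1Δ. In mug174Δ they lay between the 21.9th and the 32.4th percentile, and in WT between the 20.1th and the 30.4th. The order of the levels among the 6 also differed between the strains, as a description with no test between genes. In red1Δ, rec8 stood first and spo5 second, and their libraries did not overlap. Then came mei4, sme2 and ssm4, of which sme2 overlapped both others, and crs1 was last and apart from the rest. In mug174Δ, mei4 was first and apart from the rest, while sme2, ssm4 and crs1 overlapped in part, and spo5 and rec8 were the lowest and overlapped. In WT, mei4 and ssm4 shared the first place with overlapping libraries, rec8, crs1 and sme2 overlapped, and spo5 was the lowest on average but overlapped rec8 and sme2. Of the summed RPKM of the 6, rec8 and spo5 together took the largest part in red1Δ, with 26.4% and 24.5% for rec8 and 21.6% and 21.5% for spo5. In WT, rec8 took 9.76% and 17.7% and spo5 6.13% and 10.2%, while mei4 took 27.6% and 25.9%.

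The comparison of red1Δ with WT asks what these RNAs do when Red1 is absent, and 6 of 6 were raised and none lowered. Among all features tested 48.4% were raised and 7.33% lowered, so a call was common in this comparison. The median log2 fold change of the 6 was 5.08, against 0.35 over all 5949 features. By size they held ranks 2 (spo5), 3 (rec8), 7 (sme2), 12 (crs1), 13 (mei4) and 16 (ssm4) of all tested features.

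The spo5 mRNA was 92.1-fold higher in red1Δ than in WT (95% interval 52.9 to 160.3), with a log2 fold change of 6.53 ± 0.33 (SE) and an adjusted p of 2.1e-04 in limma. The rec8 mRNA was 71.5-fold higher (39.3 to 130.1), at 6.16 ± 0.35 and an adjusted p of 3.7e-04. The sme2 RNA was 47.8-fold higher (33.6 to 67.9), at 5.58 ± 0.21 and an adjusted p of 1.3e-04. These 3 had the larger changes. The crs1 mRNA was 24.1-fold higher (18.4 to 31.4), the mei4 mRNA 23.9-fold higher (19.1 to 30.0) and the ssm4 mRNA 20.4-fold higher (16.7 to 24.8), with adjusted p of 1.0e-04, 6.0e-05 and 4.8e-05 in limma. The intervals of crs1, mei4 and ssm4 overlap each other and lie below those of spo5, rec8 and sme2.

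The ratio of the mean RPKM, without the added 0.5, was 110.8 for spo5 and 77.2 for rec8, both larger than the fitted fold change. Relative to the median of all tested features, the log2 fold changes were 6.17 for spo5, 5.81 for rec8, 5.23 for sme2 and 4.24 for crs1, and those of mei4 and ssm4 were lower still. Median ratio scaling of the libraries brought the median over all features to -0.0049 and changed the counts to 1074 raised and 1135 lowered features. The 6 RNAs were raised under this scaling as well.

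**Figure D3:**
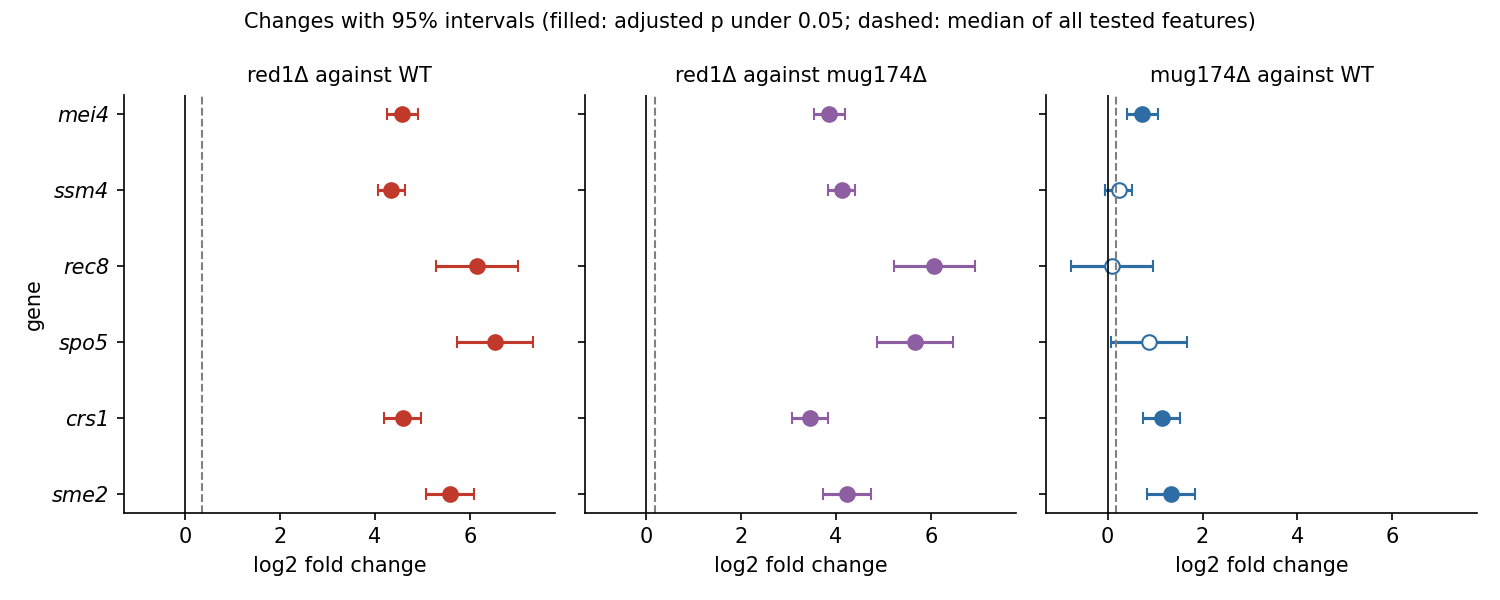
Log2 fold change of each RNA (x axis) with its 95% interval in red1Δ against WT, red1Δ against mug174Δ and mug174Δ against WT, with filled points at an adjusted p under 0.05 and a dashed line at the median of all tested features. In red1Δ against WT the points lie between 4.35 and 6.53, and in mug174Δ against WT between 0.08 and 1.34.

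The comparison of mug174Δ with WT asks the same of Mug174. Of the 6 RNAs, 3 were raised, none was lowered and 3 did not pass the test, beside 19.8% raised and 5.53% lowered among all features. The median log2 fold change of the 6 was 0.80, against 0.18 over all features tested. The sme2 RNA was 2.53-fold higher (1.78 to 3.60), with a log2 fold change of 1.34 ± 0.21 (SE) and an adjusted p of 0.012 in limma. The crs1 mRNA was 2.20-fold higher (1.68 to 2.87), at 1.14 ± 0.16 and an adjusted p of 0.0098, and the mei4 mRNA was 1.65-fold higher (1.32 to 2.07), at 0.73 ± 0.13 and an adjusted p of 0.017. Relative to the median of all features these changes were 1.16, 0.96 and 0.55.

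These 3 calls rest on all 4 libraries of the comparison. Without mug174Δ replicate 1, mug174Δ replicate 2, WT replicate 1 or WT replicate 2, none of the 6 was called in limma, with adjusted p between 0.058 and 0.108 for sme2, crs1 and mei4, while their log2 fold changes stayed between 0.62 and 1.54. All 4 possible pairs of a mug174Δ and a WT library had the higher value in mug174Δ for sme2, crs1 and mei4. The same held for ssm4 and spo5, which were not called, and the share over all features was not counted. With voom weights on recovered reads sme2 had an adjusted p of 0.074, and with no filter on low values mei4 had one of 0.052.

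For spo5 the log2 fold change was 0.87, with a 95% interval from 0.07 to 1.67 and an adjusted p of 0.098 in limma. For ssm4 it was 0.23 (-0.05 to 0.52), with an adjusted p of 0.18. For rec8 it was 0.08 (-0.78 to 0.95), with an adjusted p of 0.87, and its sign changed to -0.07 with median ratio scaling, to -0.20 without mug174Δ replicate 2 and to -0.43 without WT replicate 1. The interval of spo5 includes a change of 1 on the log2 scale, and none of the 3 reaches the sizes seen in red1Δ.

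Set against each other directly, red1Δ was above mug174Δ for 6 of 6 RNAs, beside 16.1% of all features raised and 3.28% lowered in this comparison. The differences on the log2 scale were 6.07 for rec8, 5.66 for spo5, 4.24 for sme2, 4.12 for ssm4, 3.86 for mei4 and 3.45 for crs1, with adjusted p from 6.6e-05 to 6.0e-04 in limma. The median was 4.18, against 0.18 over all features. In fold, rec8 was 67.4 times, spo5 50.5 times, sme2 18.9 times, ssm4 17.3 times, mei4 14.5 times and crs1 10.9 times as high in red1Δ as in mug174Δ. All red1Δ libraries were above all mug174Δ libraries for each RNA, and the share of all features with such a separation was not counted.

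**Figure D4:**
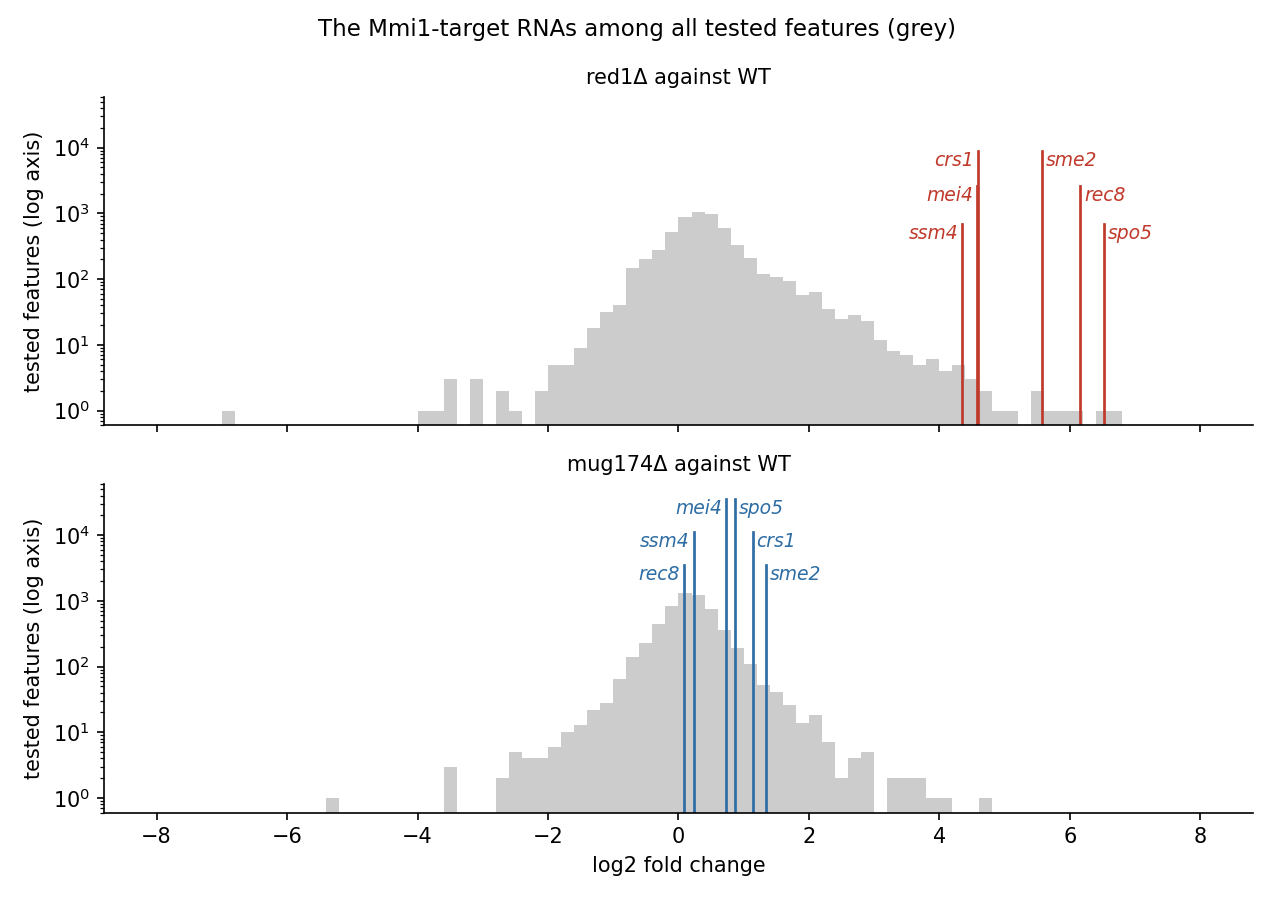
Histograms of the log2 fold change of 5949 tested features (grey, counts on a log axis), with the 6 RNAs marked by lines, in red1Δ against WT (upper panel) and mug174Δ against WT (lower panel). In red1Δ the lines stand in the far right tail at 4.35 to 6.53. In mug174Δ they stand between 0.08 and 1.34, from the 38.8th percentile (rec8) to the 97.7th (sme2) of all tested features.

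The features themselves set limits on what was counted. None of the 5 mRNA features and not the sme2 feature overlaps another listed feature. RefSeq annotates a non-coding RNA on the other strand over 96.7% of the coding bases of rec8, over 68.6% and 14.1% of mei4 (2 RNAs), over 38.9% and 56.1% of ssm4 (2 RNAs) and over 95.2% of sme2, and none of these RNAs is a feature of the table. The transcript of ade9 in RefSeq covers 43.9% of crs1 on the other strand. Of the 345 protein-coding features at 0 reads in every library, 327 lie wholly inside a listed feature of the other strand, and these are all the protein-coding features so placed. Such zeros are therefore not read as absent RNA here, and reads from the 2 strands of the 6 RNAs cannot be told apart.

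The table's sme2 feature covers only part of the RNA. It spans chrII:339346-340012 on the minus strand, 667 bases, while RefSeq gives the long form of sme2 as chrII:339346-340907 with 1562 bases and the short form, sme2-S, as chrII:340399-340907 with 509 bases. The feature covers 42.7% of the long form, at its 3′ end, and none of the short form. It holds 8 of the 9 words of the long form, so the values of sme2 above speak of the word-rich 3′ part of the long form. The next listed feature in the locus, SPNCRNA.1342, lies on the other strand over the 5′ part and had 4.90 and 7.47 RPKM in red1Δ, 5.46 and 6.04 RPKM in mug174Δ, and 3.22 and 2.87 RPKM in WT. It was raised in both mutants, by 0.89 on the log2 scale in red1Δ (adjusted p 0.020 in limma) and by 0.82 in mug174Δ (adjusted p 0.049), against 5.58 and 1.34 for sme2. All of SPNCRNA.1342 lies within the long form of sme2, and parts lie within sme2-S and the RefSeq transcript of mrpl8. Whether strand was used in counting is not given, so its reads cannot be told from theirs.

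**Figure D5:**
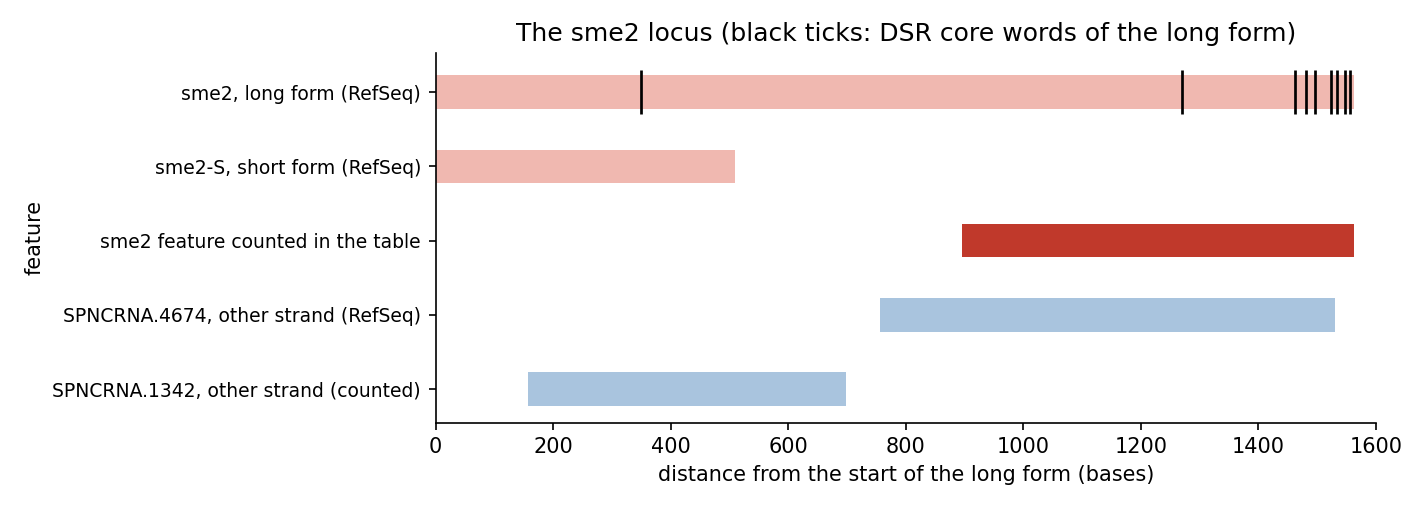
Map of the sme2 locus, with the distance from the start of the long form in bases on the x axis and 1 row per feature, showing features of the sme2 strand in red shades, those of the other strand in blue, and the DSR core words of the long form as black ticks. The feature counted in the table (dark red, 667 bases) holds 8 of the 9 words and does not reach the short form.

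The genes beside the 6 RNAs had log2 fold changes from -0.02 to 0.89 in red1Δ, against 4.35 to 6.53 for the RNAs themselves. Of 15 listed features that flank them, 13 could be tested, and 4 were raised in red1Δ and none lowered, beside 48.4% of all features raised and a median of 0.35. The largest was SPNCRNA.1342, whose reads cannot be told from those of the long form of sme2. The others raised were mug110 beside crs1 by 0.64, pcf1 beside spo5 by 0.35 and mrpl8 beside sme2 by 0.30. The actin gene act1, the nearest gene downstream of mei4, had 3511 and 3713 RPKM in red1Δ and 2807 and 3086 RPKM in WT, a log2 fold change of 0.29 that did not pass the test. In mug174Δ, SPNCRNA.1342 was the single flanking feature raised of 13, beside 19.8% of all features.

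Of 4 other meiotic genes linked to Mmi1 or Red1, 3 could be tested, and all 3 were raised in red1Δ and none called in mug174Δ, where 1 of 3 was raised with the replicate number as a block. The mRNA mcp7, for a meiotic recombination protein, had 588 and 615 RPKM in red1Δ, 16.7 and 29.6 RPKM in mug174Δ, and 26.1 and 38.9 RPKM in WT. Its log2 fold change was 4.22 in red1Δ and -0.51 in mug174Δ. The mRNA mug8 changed by 5.58 and 0.41 and mug9 by 6.77 and 0.81, where the first value is red1Δ and the second mug174Δ, each against WT. The fourth gene of this list, mcp5 (named num1 in RefSeq), was listed at 0 in every library. By its own size in red1Δ, mug9 held rank 1 of all tested features, ahead of spo5.

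The machinery that removes these RNAs had smaller changes. The mmi1 mRNA itself had 71.2 and 71.5 RPKM in red1Δ, 61.5 and 65.4 RPKM in mug174Δ, and 36.7 and 42.8 RPKM in WT. It was raised by 0.84 in red1Δ (adjusted p 0.0025 in limma) and by 0.67 in mug174Δ (adjusted p 0.011), and by 0.48 and 0.50 with median ratio scaling. Of 13 tested genes of this list, 6 were raised and 1 lowered in red1Δ, the deleted red1, and 2 were raised in mug174Δ, beside 48.4% and 19.8% of all features raised. With median ratio scaling the counts in red1Δ were 2 raised and 5 lowered and in mug174Δ 1 raised, and without WT replicate 2 those in red1Δ were 2 raised and 1 lowered, so that no direction is given for the list as a whole. The other raised genes with the smallest p were red5, for a zinc finger protein of the Red1 complex, by 1.21, the helicase gene mtl1 by 0.42 and the poly(A) polymerase gene cid14 by 0.44, of which mtl1 and cid14 were at 0.06 and 0.08 with that scaling and not called. In mug174Δ, red1 was raised by 0.59 (adjusted p 0.029), with 98.2 and 82.7 RPKM in mug174Δ against 62.7 and 57.1 RPKM in WT, and was at 0.41 with median ratio scaling, which did not pass the test (adjusted p 0.067).

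Genes that control entry into meiosis were tested because Mei2 and sme2 act together. The mei2 mRNA had 3.23 and 6.78 RPKM in red1Δ, 6.14 and 6.89 RPKM in mug174Δ, and 6.69 and 5.65 RPKM in WT, with log2 fold changes of -0.35 and 0.07 against WT and no call. Of 9 tested genes of this list, which also holds mei3, 7 were raised and none lowered in red1Δ, beside 48.4% of all features raised, with a median of 0.67 beside 0.35 over all features. The 7 include mei3, which was tested only through its red1Δ libraries. In mug174Δ 4 were raised, beside 19.8%, with a median of 0.60 beside 0.18. With median ratio scaling the counts were 3 and 3. The largest change was in rep1, for an activator of the MBF transcription factor in premeiotic S phase, with 43.9 and 46.1 RPKM in red1Δ, 14.4 and 9.99 RPKM in mug174Δ, and 4.73 and 5.85 RPKM in WT. It was raised by 2.98 in red1Δ and 1.12 in mug174Δ. The kinase gene pat1, whose product represses Mei2, was raised by 0.97 and 1.18, and cuf2, for a meiotic transcription factor, by 0.93 and 0.60. The cuf2 call in mug174Δ was lost with median ratio scaling, at 0.43 and an adjusted p of 0.080. Without WT replicate 1 or WT replicate 2 the count raised in red1Δ was 3 of 9, and without red1Δ replicate 2 it was 3 raised and 1 lowered of 8.

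The partners of the individual mRNAs were looked at from lists. In mug174Δ, at most 3 genes of any list were called once 1 mug174Δ or 1 WT library was left out, so the mug174Δ counts rest on all 4 libraries. For Rec8, 11 other cohesin genes and partners were tested, of which 8 were raised and 1 lowered in red1Δ, beside 48.4% and 7.33% of all features, and 3 raised in mug174Δ, beside 19.8%. The medians were 0.50 in red1Δ and 0.30 in mug174Δ, beside 0.35 and 0.18 over all features. With median ratio scaling 5 were raised and 1 lowered in red1Δ and 2 raised in mug174Δ. Without WT replicate 2, 5 were raised in red1Δ. The meiotic subunit gene rec11 had 33.0 and 37.8 RPKM in red1Δ, 5.81 and 5.89 RPKM in mug174Δ, and 1.08 and 2.39 RPKM in WT, and was raised by 4.07 and 1.57. The gene moa1, for the meiosis-specific kinetochore regulator that works with Rec8, had 17.9 and 23.2 RPKM in red1Δ, 0.698 and 1.24 RPKM in mug174Δ, and 0.421 and 0.9996 RPKM in WT. It was raised by 4.15 in red1Δ and not called in mug174Δ at 0.30. Too few libraries outside red1Δ reached 1 RPKM, so moa1 was tested only through the strain where it was high. It is counted among the 8 raised in red1Δ. The mitotic kleisin gene rad21 was raised by only 0.71 in red1Δ and was at -0.05 in mug174Δ without a call. The shugoshin gene sgo1 was raised by 1.47 and 0.84 and the cohesin loader gene mis4 by 0.94 and 0.49. The mis4 call in mug174Δ was lost with median ratio scaling, at 0.32 and an adjusted p of 0.081.

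For Ssm4, 11 other genes of dynein, dynactin and nuclear movement were tested, of which 9 were raised and none lowered in each mutant, beside 48.4% of all features raised in red1Δ and 19.8% in mug174Δ. The medians were 1.47 in red1Δ and 0.80 in mug174Δ, beside 0.35 and 0.18 over all features. The dynein intermediate chain gene dic1 had 47.2 and 54.5 RPKM in red1Δ, 11.8 and 9.16 RPKM in mug174Δ, and 2.81 and 2.64 RPKM in WT, raised by 3.99 and 1.76. The dynactin gene arp1 was raised by 3.79 and 1.06, the dynein light intermediate chain gene dli1 by 3.50 and 2.10, and the bouquet gene bqt1, for a protein that ties telomeres to the spindle pole body, by 2.98 and 1.71. In mug174Δ ssm4 itself was at 0.23, with an upper bound of 0.52. The gene kms1, for a nuclear envelope protein, was raised by 1.02 and 0.80. With median ratio scaling 8 were raised and 1 lowered in red1Δ and 7 raised in mug174Δ. In mug174Δ none was called without mug174Δ replicate 1, and 3 without mug174Δ replicate 2, WT replicate 1 or WT replicate 2.

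For Mei4 and Spo5, 13 other genes of middle meiosis and spore formation were tested, of which 12 were raised in red1Δ, beside 48.4% of all features, and 8 in mug174Δ, beside 19.8%, with none lowered. The 12 include spn7, which reached 1 RPKM only in red1Δ and so was tested only through the strain where it was high. The medians were 0.77 in red1Δ and 0.51 in mug174Δ, beside 0.35 and 0.18 over all features. The largest changes in red1Δ were those of the kinase gene mde3, by 1.59, and of mfr1, for a meiotic activator of the anaphase-promoting complex, by 1.57, against 4.58 for mei4. In mug174Δ the largest were those of mfr1 by 1.23, spo2, for a component of the spindle pole body in spore formation, by 1.11 and mde3 by 0.98, against 0.73 for mei4. With median ratio scaling 6 were raised in red1Δ and 5 in mug174Δ, and without WT replicate 2 the count in red1Δ was 7. For Crs1, 9 other cyclin genes were tested, and 2 were raised in red1Δ, mcs2 by 0.45 and clg1 by 0.45, beside 48.4% of all features. Neither was called with median ratio scaling, where 1 gene was lowered. Without WT replicate 1 none was called, without red1Δ replicate 2 the count was 1, and without red1Δ replicate 1 it was 3. In mug174Δ 1 was raised, mcs2, by 0.41, and 1 lowered, the B-type cyclin gene cig1, by -0.48, beside 19.8% and 5.53% of all features. Under median ratio scaling mcs2 was at 0.24 and not called (adjusted p 0.15), and 2 cyclin genes were lowered in mug174Δ.

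The tested features whose pattern over the 6 libraries was most like that of each RNA were found by the root mean square difference of log2(RPKM + 0.5) after the WT mean of each feature was taken off. For mei4 the nearest was the small nucleolar RNA snR91, at 0.18 log2 units, with 29.7 and 29.3 RPKM in red1Δ, 2.10 and 2.24 RPKM in mug174Δ, and 0.759 and 1.20 RPKM in WT, followed by crs1 at 0.27 and ssm4 at 0.32. A RefSeq feature on the same strand covers 136 of the 144 bases of snR91, so its reads cannot be assigned to it alone. For ssm4 the nearest were moa1 at 0.26, mei4 at 0.32 and snR91 at 0.37. For crs1 they were mei4 at 0.27, snR91 at 0.29 and sno12, another small nucleolar RNA, at 0.34.

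For spo5 the nearest was mug9, at 0.15, with 515 and 564 RPKM in red1Δ, 6.64 and 9.93 RPKM in mug174Δ, and 3.05 and 6.34 RPKM in WT, followed by rec8 at 0.50 and mug10 at 0.55. For rec8 they were mug8 at 0.46, spo5 at 0.50 and mug9 at 0.55. For sme2 they were mug10 at 0.35, sno12 at 0.49 and crs1 at 0.59. Of the 18 nearest places, 7 were thus taken by another of the 6 RNAs, and rec8 and spo5 were each among the nearest of the other. The measure includes the red1Δ libraries, and by change in red1Δ all 6 RNAs held ranks 2 to 16. Their nearness in part repeats this, and the share for other features of like change was not counted.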

How the data were processed

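RNA of vegetative cells was sequenced from 2 libraries each of red1Δ, mug174Δ and WT. The labels give an rRNA depletion kit and a directional library kit, and the paper describes poly(dT)-enriched, strand-specific libraries aligned with HISAT2 to ASM294v2. STAR 2.5.3a, StringTie 1.3.1c and FastQC 0.11.6 appear in the submitters' processing notes. How reads were counted, and whether strand was used, is not given in the sources read. The table deposited by the authors holds RPKM per feature, with coding length for protein-coding genes. It also holds the authors' log2 fold changes and p-values for each mutant, which were not used. It has 0 other columns with values of single samples.

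Reads were recovered as RPKM times length over the value of 1 read, whole within 0.01 reads for 100% of values, and gave a depth of 16565908 to 18627129 reads. Changes were tested in limma 3.58.1 (R 4.3.3) on log2(RPKM + 0.5), fitting the 6 libraries together with a mean for each strain and a trended eBayes step. Tests were 2-sided, with Benjamini-Hochberg adjustment over the features with at least 1 RPKM in at least 2 libraries. The script was tested on simulated data. The spread is thus shared by the 3 strains.

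The 6 RNAs and all gene lists were chosen with earlier results of these data known. From each list, at most 5 genes with the smallest p in red1Δ against WT, then in mug174Δ against WT, were named, and mmi1, red1, mug174 and mei2 in any case. For each of the 6 RNAs the 3 features of nearest pattern were named. The flanking features, mfm2, spn7 and the features named by word count in the closing section fall outside this rule and were chosen after their values were seen. In the lists, hrs1, lsk1 and pcl1 were dropped because their symbols belong to other kinds of genes in RefSeq, and mcp5 and dil1 were matched as num1 and dli1. The alternatives were median ratio scaling, voom weights on recovered reads, a replicate block, a fit of the 2 strains compared, an untrended eBayes step, a filter at 5 RPKM or none, pseudocounts of 0.1 and 1 RPKM, each library left out in turn, and a narrower word.

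Sequences and word counts come from RefSeq (ASM294v3). Of 5143 protein-coding features matched by locus tag, 5027 have the same coding segments in the table and in RefSeq, the 5 mRNAs among them, and 5011 of these open with ATG and close with a stop codon. Word counts use these 5027 features and 1677 non-coding ones. Of the latter, 1676 have the same segments in both, and sme2 was kept with the segment of the table. Figures were drawn with matplotlib 3.10.9 in Python 3.11.15.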

Additional observations from a re-analysis of the deposited data

How the results depend on the processing

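In red1Δ against WT and red1Δ against mug174Δ, 6 of 6 RNAs were called under every alternative that was run. In mug174Δ against WT, 3 were called, and leaving out 1 library gave between 0 and 3. The counts of 0 are those without either mug174Δ or either WT library, where 1 library then stands alone for its strain and borrows its spread from the others. The raised features among all tested were then 14 to 70, against 1179. Single log2 fold changes that turned were those of rec8 in mug174Δ, to -0.067 with median ratio scaling and, among fits without 1 library, to values as low as -0.43 beside a highest of 0.59. The cause was not tested. Of the other alternative values of a single RNA, 14 lost their call, 1 gained one and 252 kept direction and call.

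With the replicate block, spo5 in mug174Δ had an adjusted p of 0.026 in limma, which made 4 calls of 6, and no other call of the 6 RNAs changed. In the gene lists the block moved the raised counts in mug174Δ to 1 of 3 other meiotic genes, 3 of 13 genes of the removal machinery and 4 of 11 cohesin genes, and in red1Δ 9 of 11 cohesin genes were raised and 1 of 11 mating and meiotic genes lowered. The labels do not say that a replicate number marks a shared culture or day. Deviations of libraries with the same number correlated by 0.23 between red1Δ and WT, 0.19 between mug174Δ and WT and 0.06 between red1Δ and mug174Δ over 5949 features. Counts over all features moved by over 1.5 times in mug174Δ against WT with no filter (667 raised), with median ratio scaling (582 raised, 602 lowered) and in the fit of 2 strains (1812 raised, 624 lowered) and without a red1Δ library (1810 and 1814 raised), against 1179 raised and 329 lowered. In red1Δ against WT they were 1074 raised and 1135 lowered with median ratio scaling, 1678 and 160 without WT replicate 1 and 1433 and 148 without WT replicate 2, against 2880 and 436. In red1Δ against mug174Δ, 958 were raised, and 89 to 1777 without 1 library, 439 with median ratio scaling, 544 with no filter and 412 in the fit of 2 strains. Without the form TAAAAC the word counts were 9 in mei4, 11 in ssm4, 9 in rec8, 4 in spo5, 7 in crs1 and 6 in sme2. Depth limits the WT and mug174Δ levels, which rest on 30 to 313 reads each.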

Other observations

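The core word was also counted in the other protein-coding genes, as a description and with no test. Of 26 tested genes other than the 5 mRNAs that had at least 4 TNAAAC words within 150 bases of 1 exon, 21 (80.8%) were raised in red1Δ, with a median log2 fold change of 0.75. Of 4424 genes with at most 2 such words, 45.7% were raised, with a median of 0.29. The first group had a median coding length of 2055 bases and the second one of 1131, and the part of length in the difference was not tested. In mug174Δ, 34.6% of the first group were raised, with a median of 0.32, against 20.2% of the second, with a median of 0.15. These shares and those below come from the main fit. They were not redone with median ratio scaling or the other alternatives.

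In the first group, 8 genes exceeded a log2 fold change of 2 in red1Δ, and all are known by meiotic names: mcp7, mek1, moa1, mug10, mug4, mug8, mug9 and rec25. Of these, mcp7, moa1, mug8 and mug9 are described above, moa1 with the limit that it was tested only through its red1Δ libraries. None of the 26 exceeded 2 in mug174Δ, beside 16 of the 4424 in the second group. With the bound at 3 words there were 198 genes, with a median coding length of 1825.5 bases. Of these 198, 63.1% were raised in red1Δ, with a median of 0.43, and 27.8% in mug174Δ, with a median of 0.24. Among them dli1 and meu13 exceeded 2 in mug174Δ. In the second group, 37 of 4424 exceeded 2 in red1Δ, among them arp1 and dic1. Only coding segments were searched, so words in untranslated regions are not counted in any group.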
